A study of Homo sapiens with 24 samples.

Results

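The genes described here were 10 feedback and output genes of the ERK pathway, DUSP4, DUSP5, DUSP6, SPRY1, SPRY2, SPRED1, SPRED2, FOSL1, ETV5 and PHLDA1. They were taken as all probes whose annotated symbol was one of these names, which gave 16 probes for the 10 genes, out of 47323 probes on the array. RNA was profiled on 24 Illumina bead arrays from the established Hodgkin lymphoma (HL) cell lines SUP-HD1, L-540, L-428 and KM-H2, each collected after 2 h as vehicle-treated (DMSO) control or with 10 μM AEZS-136, with 3 arrays in each of the 8 groups. AEZS-136 is a small molecule that the study describes as a dual inhibitor of PI3K and ERK. In the study, ERK phosphorylation went up under treatment in KM-H2 and L-428, its resistant lines, and went down in SUP-HD1 and L-540, its sensitive lines, while PI3K phosphorylation was reduced in every line. Whether a group's 3 arrays were independent cultures is not stated in the labels. All p-values therefore measure the spread between arrays, which may be technical, and each class was represented by only 2 lines.

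Signals from growth factor and antigen receptors pass through RAS, RAF and MEK to the kinase ERK, which then drives transcription of a set of early genes. Part of this output acts back on the pathway. The dual-specificity phosphatases remove the activating phosphates from ERK, and the Sprouty and Spred proteins restrain the steps between the receptor, RAS and RAF. Other outputs, such as the AP-1 subunit FOSL1 and the ETS factor ETV5, carry the signal on to further genes, so the RNA of these genes is widely used as a readout of ERK activity.

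Promoter sequence was at hand from RefSeq (GRCh38.p14) for 6 of the 10 members, as 10 windows of the 250 bases before an annotated start, each entry being 1 start. The windows of SPRY1 and SPRED1 are shown because these genes carried called changes in 2 lines each. Capitals mark the ETS core letters CCGGAA, the only motif found in them.
SPRY1, upstream start, chr4:123396545-123396794, plus strand: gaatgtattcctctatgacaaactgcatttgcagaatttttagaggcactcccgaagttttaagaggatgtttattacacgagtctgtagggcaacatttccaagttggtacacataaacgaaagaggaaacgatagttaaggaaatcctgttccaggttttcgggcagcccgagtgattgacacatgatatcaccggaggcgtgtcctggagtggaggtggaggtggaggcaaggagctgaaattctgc
SPRY1, downstream start, chr4:123398136-123398385, plus strand: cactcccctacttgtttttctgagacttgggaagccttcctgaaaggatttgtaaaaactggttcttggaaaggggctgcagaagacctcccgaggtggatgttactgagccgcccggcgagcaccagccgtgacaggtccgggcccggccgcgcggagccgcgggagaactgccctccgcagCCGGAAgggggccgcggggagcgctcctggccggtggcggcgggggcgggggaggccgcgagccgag
SPRED1, chr15:38252586-38252835, plus strand: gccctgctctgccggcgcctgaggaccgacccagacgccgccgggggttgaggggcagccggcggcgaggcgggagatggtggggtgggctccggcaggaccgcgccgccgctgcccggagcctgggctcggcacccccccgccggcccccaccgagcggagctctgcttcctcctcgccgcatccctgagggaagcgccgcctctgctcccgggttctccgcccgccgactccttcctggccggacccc
On both strands, the ETS core CCGGAA was present in 3 of the 10 member windows, 1 each of SPRY1, SPRY2 and PHLDA1, against 14.5% of all 35116 windows in the table. In the SPRY1 window it began 67 bases before the start. The longer ETS letters ACCGGAAGT, which contain the core, the AP-1 letters TGACTCA with their reverse complement TGAGTCA, and the CRE letters TGACGTCA were found in 0 of the 10 member windows, and in 0.814%, 4.2% and 1.65% of all windows. These matches describe letters in the windows and were not set against any binding data.

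The arrays differed somewhat in depth. Their median signals ran from 96 to 127.9 intensity units, lowest in KM-H2 control replicate 1 (96) and L-540 control replicate 3 (96.4). Per array, 16876 to 19524 probes were detected at a detection p below 0.05. The lowest correlation of an array with another of its group was 0.9883, within the L-540 controls. Of 9 Hodgkin cell markers, 7 were detected on every control array of each line. CCL22 had no kept probe and was counted as not detected. TNFRSF8 (CD30), a defining marker of Hodgkin cells, was detected on all controls only in L-540, and CD40 in every line except L-540. TNFRSF8 rested on 1 kept probe, with control means from 4.37 (SUP-HD1) to 4.88 (L-428) outside L-540. Whether its RNA is absent there or missed by the probe was not tested. No line expressed a full marker set of another cell type, although single T cell, B cell and myeloid markers were detected, most of all in KM-H2, where 4 of 7 of each list were detected. Of the T cell markers 2 fell in KM-H2 and 1, CD2, in L-540 (-1.13 ± 0.21 SE on the log2 scale), and the list's summed log2 level went from 10.67 to 10.79 in KM-H2 controls to 10.3 to 10.35 in treated arrays, and from 10.14 to 10.25 to 9.35 to 9.5 in L-540. Myeloid markers had 1 call in KM-H2 and 1 in SUP-HD1, both falling, stromal and epithelial markers 1 rise in each of these lines, Hodgkin markers 1 fall in L-540 and 1 rise in SUP-HD1, and B cell markers 0 calls. Among 9 measured housekeeping genes, TBP was the one that was called, and it fell in all 4 lines, by 0.40 to 0.61. The part of these shifts in the results below was not tested. The labels give no export order. An order was inferred from a run of probes whose columns were out of register, and it was cut in the middle. This gave 2 export sets of 12 arrays, each holding every group with 1 or 2 arrays. Whether these sets were a physical batch is not known. Every line has a group of a single array in at least 1 of the sets, assumed to vary like the other groups, so the values within sets are given mainly for their direction and size.

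AEZS-136 changed a minority of the 10 genes in each line, mostly downward, and the genes that changed differed from line to line. A gene was called where limma's adjusted p was below 0.05 and its log2 change exceeded 0.4 in size, on its brightest kept probe. DUSP5 and FOSL1 fell and ETV5 rose in KM-H2. In L-428, SPRY1, SPRED1 and SPRED2 fell. SPRY1 and FOSL1 fell in L-540, and SPRED1 and FOSL1 fell in SUP-HD1. Of the 40 pairs of member and line, 10 were called, 9 falling and 1 rising, and no member was called in all 4 lines. Because RNA was taken from whole cultures, fewer cells with a transcript and less transcript per cell cannot be told apart.

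**Figure D1:**
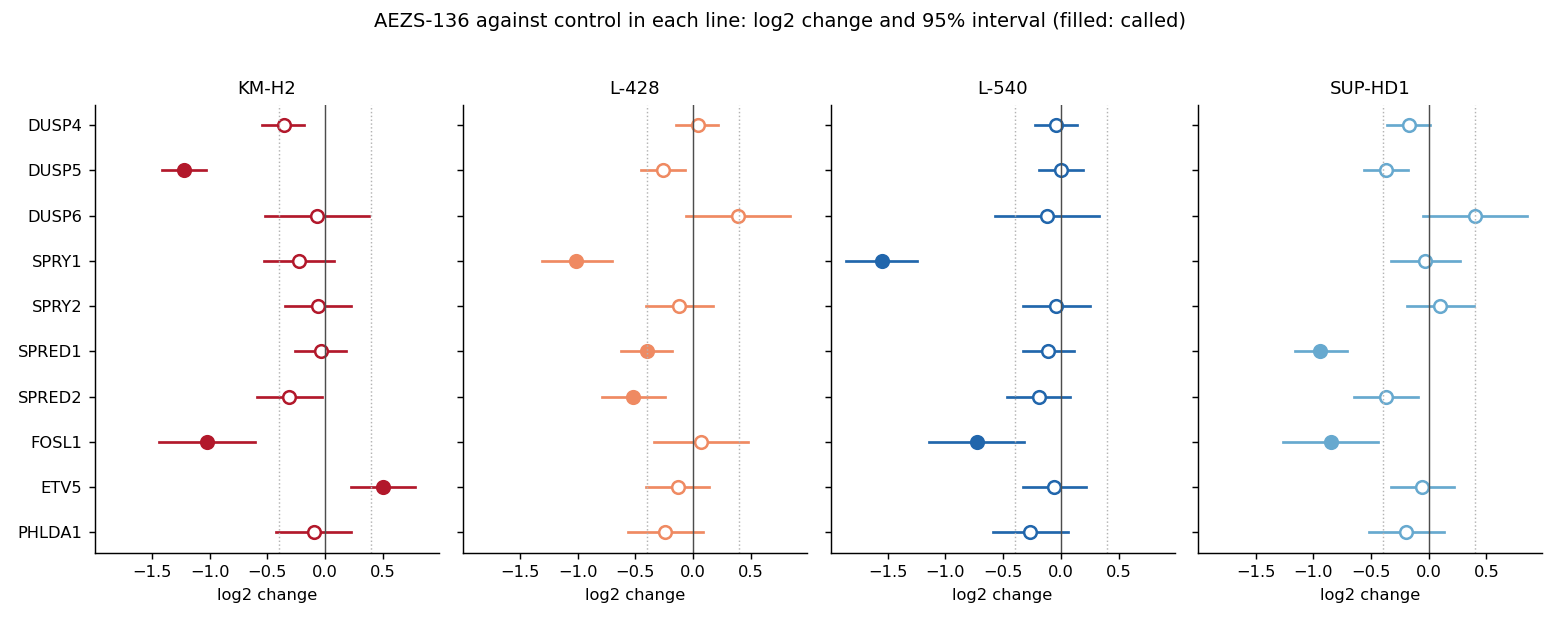
Log2 change of each member (AEZS-136 against control, main probe) in the 4 lines, with 95% intervals over 3 against 3 arrays. Filled points are called, dotted lines mark 0.4 in either direction. The strongest falls are SPRY1 in L-540 (-1.55) and DUSP5 in KM-H2 (-1.22), and the only filled point to the right of 0 is ETV5 in KM-H2 (0.50).

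These counts stand against the same call over all 13406 genes with a kept probe. In KM-H2, 2 members fell and 1 rose, where 5.8% of all genes fell and 7.12% rose. In L-428, 3 fell and 0 rose, against 3.61% and 4.47% of all genes. L-540 had 2 falling and 0 rising, against 4.59% and 5.52%, and SUP-HD1 had 2 falling and 0 rising, against 4.67% and 3.21%. The median log2 change over the 10 members was -0.17 in KM-H2, -0.18 in L-428, -0.11 in L-540 and -0.18 in SUP-HD1, while the median over all genes lay between -0.02 and 0. On at least 1 array, 9 members were detected in KM-H2, 8 in L-428, 7 in L-540 and 9 in SUP-HD1, and a fall of the others could not have been measured. How many calls point up depended on the scaling. With median scaling in place of quantile normalisation the share of called probes that rose went from 57.7% to 88.5% in KM-H2, from 61% to 82.6% in L-540, from 44.9% to 71.7% in SUP-HD1 and from 63% to 79.7% for the mean of the lines, while in L-428 it went from 55.7% to 46%. With the authors' normalised values the L-428 share was 66%. The calls of DUSP5 in KM-H2, SPRY1 in L-428 and L-540 and SPRED1 in SUP-HD1 were also made without background correction, with median scaling and with the authors' values. The other 6 were lost without background correction, where changes of dim probes were smaller, and 4 of them also with median scaling, SPRED1 (adjusted p = 0.18) and SPRED2 (0.0902) in L-428 and FOSL1 in L-540 (0.0949) and SUP-HD1 (0.0621).

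**Figure D2:**
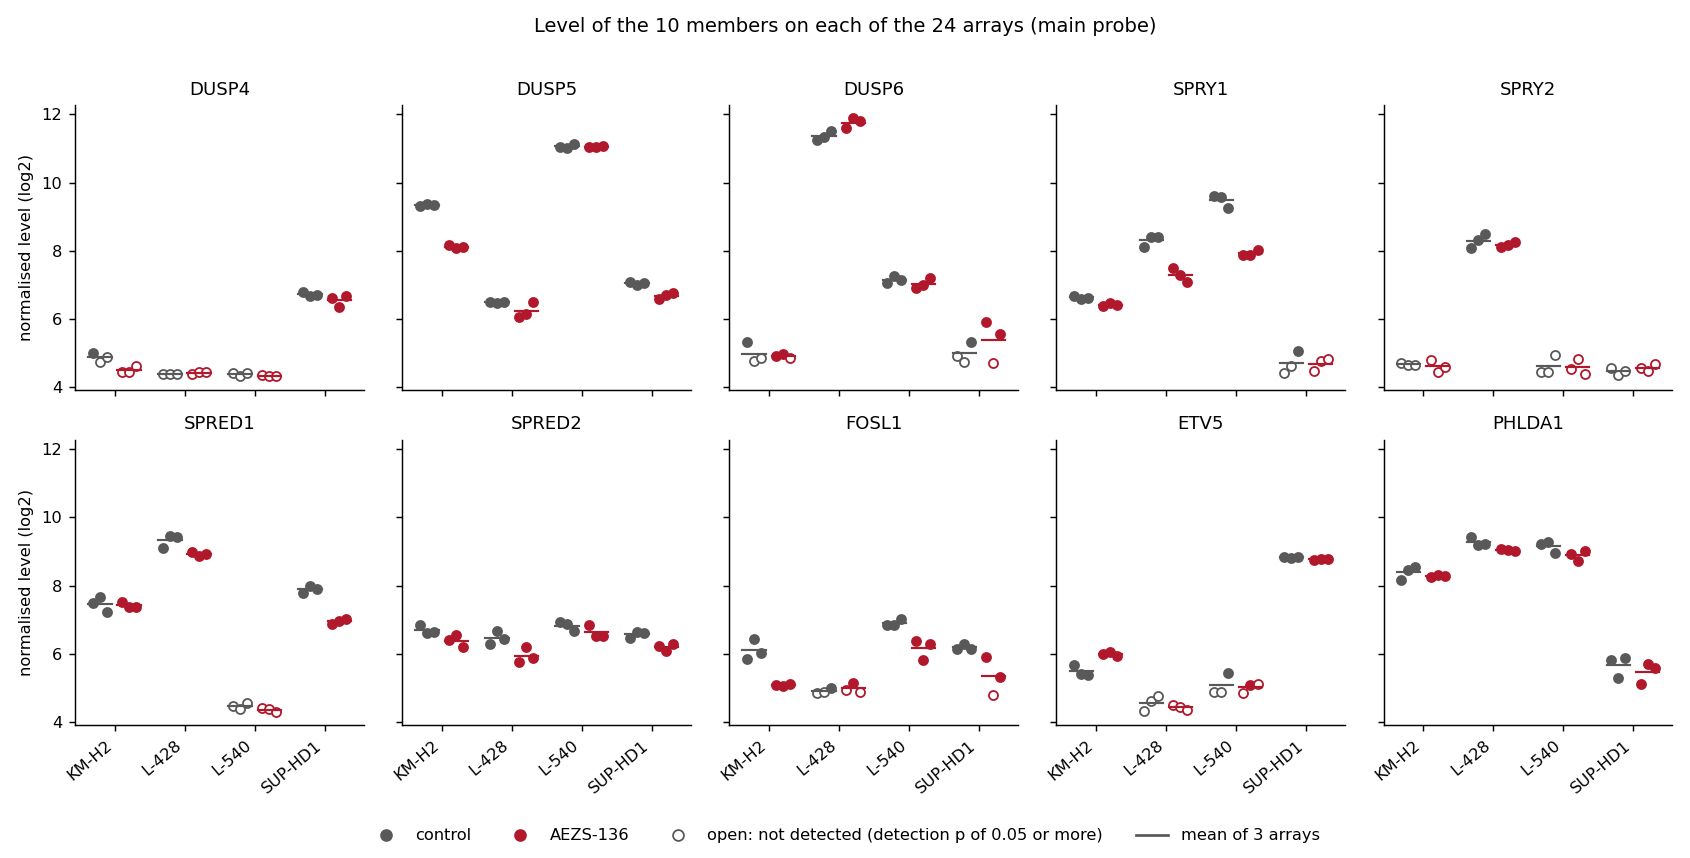
Normalised log2 level of each member on each of the 24 arrays (main probe), control in grey and AEZS-136 in red, with open circles where the probe was not detected and bars at the mean of 3 arrays. DUSP5 in KM-H2 and SPRY1 in L-428 and L-540 show treated arrays well below the controls, and SPRY2 is above background in L-428 alone.

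Among the phosphatases, DUSP5 carried the clearest change. DUSP5 is a nuclear phosphatase specific for ERK, whose gene is itself induced by ERK. Its level in KM-H2 was 9.32, 9.36 and 9.34 log2 units on the control arrays and 8.17, 8.07 and 8.12 on the treated arrays. The groups did not overlap, and the spread within each was a small part of the gap. DUSP5 fell 2.33-fold (log2 change -1.22 ± 0.091 SE, limma adjusted p = 8.33e-09), with -1.19 in the first export set and -1.3 in the second. In the second set alone, with fewer arrays, the call was lost (adjusted p = 0.065). In SUP-HD1 the controls read 7.1, 7.0 and 7.07 and the treated arrays 6.58, 6.72 and 6.76, all lower, but the change of -0.37 (adjusted p = 0.0124) missed the fold threshold, and it reached -0.40 and was called without AEZS-136 replicate 3. The L-428 change was -0.26 (95% interval -0.45 to -0.07, adjusted p = 0.0806), with 1 treated array at the control level. In L-540, where DUSP5 was most abundant at 11.06 ± 0.069 (SD, n = 3), the treated arrays lay at the same mean, with an interval of the change from -0.19 to 0.19.

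DUSP6, the cytoplasmic ERK phosphatase and one of the most used ERK readouts, was not called in any line. In L-428 it was strongly expressed, at 11.25, 11.35 and 11.50 in controls and 11.61, 11.88 and 11.79 under AEZS-136. All treated arrays were above all controls, yet the difference of 0.39 had a 95% interval from -0.06 to 0.84 (adjusted p = 0.327), and the second DUSP6 probe gave 0.11. In L-540 the change was -0.12 (interval -0.57 to 0.33). KM-H2 and SUP-HD1 controls were near background, with 1 of 3 control arrays detected in each, and SUP-HD1 treated arrays were widely spread at 5.91, 4.71 and 5.56. Without its AEZS-136 replicate 2, the SUP-HD1 change was 0.74 and was called (adjusted p = 0.0131). DUSP4, a nuclear phosphatase of ERK and other MAP kinases, was detected on all arrays of SUP-HD1 only, where it read 6.78, 6.69 and 6.72 in controls and 6.62, 6.36 and 6.68 under AEZS-136. The groups were close, and the change of -0.17 had an interval from -0.36 to 0.01. In KM-H2, where 1 control array and 0 treated arrays detected it, its change was -0.36 (adjusted p = 0.00714), under the fold threshold, though past it without control replicate 2 (-0.43) or AEZS-136 replicate 3 (-0.42).

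SPRY1 encodes a Sprouty protein, an inducible inhibitor of receptor signalling to RAS and ERK, and it showed the strongest fall of any member. In L-540 the control arrays read 9.6, 9.59 and 9.25, and the treated arrays 7.87, 7.88 and 8.03. No treated array came near a control. SPRY1 fell 2.94-fold (log2 change -1.55 ± 0.15 SE, limma adjusted p = 2.46e-07), with -1.3 and -1.72 in the first and second export sets. In L-428 SPRY1 went from 8.12, 8.40 and 8.41 to 7.51, 7.29 and 7.09, again without overlap. This was a 2.01-fold fall (log2 change -1.01 ± 0.15, adjusted p = 9.21e-05), with -1.11 and -0.95 in the export sets, where neither set alone made the call (adjusted p = 0.0602 and 0.115). KM-H2 controls at 6.69, 6.6 and 6.63 stood above treated arrays at 6.38, 6.47 and 6.40, but the change of -0.23 was not called (interval -0.53 to 0.08). In SUP-HD1 the gene was detected on 1 of 6 arrays, so a fall there could not have been measured, and the change was -0.03 (interval -0.33 to 0.27). SPRY1 thus fell in 1 line of each class. The second SPRY1 probe gave -0.92 in L-428 and -1.47 in L-540, both called, and -0.29 and 0.16 in KM-H2 and SUP-HD1, not called. The remaining SPRY1 probe was detected on 1 array and was not kept.

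SPRY2, a closely related Sprouty inhibitor, was detected in L-428 only. It passed the filter on low values through that line alone. There it read 8.09, 8.31 and 8.50 in controls and 8.12, 8.17 and 8.26 in treated cells. The values overlapped, and the change of -0.12 had an interval from -0.41 to 0.17, so a fall of the size seen for SPRY1 in the same cells lay outside it.

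The Spred proteins bind RAS signalling complexes and, with neurofibromin, limit RAS activation. SPRED1 fell in SUP-HD1 from 7.79, 8.0 and 7.91 to 6.89, 6.98 and 7.01. The groups were far apart, the 1.92-fold fall being many times the spread within them (log2 change -0.94 ± 0.11 SE, limma adjusted p = 6.08e-06). Within the export sets its change was -1.04 and -0.87, the call being lost in the second (adjusted p = 0.1). SPRED1 in L-428 read 9.11, 9.47 and 9.42 in controls and 8.99, 8.87 and 8.93 in treated arrays. It was called there by a narrow margin (-0.40, adjusted p = 0.02), and the call was lost without control replicate 2 (-0.33) or 3 (-0.36) or AEZS-136 replicate 2 (-0.37) or 3 (-0.40, adjusted p = 0.0564), and in each export set (-0.54 and -0.33). Its change in KM-H2 was -0.04 (interval -0.26 to 0.18). In L-540 SPRED1 was detected on no array.

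SPRED2 was the most evenly expressed member, detected on all 24 arrays. It fell in L-428, from 6.29, 6.67 and 6.45 to 5.75, 6.21 and 5.89. The groups did not overlap, but the nearest treated and control arrays were 6.21 and 6.29 (log2 change -0.52 ± 0.13 SE, limma adjusted p = 0.0155). The call was lost without control replicate 2 (-0.42), AEZS-136 replicate 1 (-0.42) or AEZS-136 replicate 3 (-0.49), and the export sets gave -0.23 and -0.66, neither called. SPRED2 changes in the other lines were -0.31 in KM-H2, -0.19 in L-540 and -0.37 in SUP-HD1, none called. Averaged over the 4 lines the change was -0.35 (adjusted p = 0.000432), under the fold threshold.

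FOSL1 encodes FRA-1, an AP-1 subunit whose gene and protein are both driven by ERK. It fell in 3 lines and was near background in the other. In KM-H2 FOSL1 read 5.85, 6.45 and 6.03 in controls and 5.08, 5.07 and 5.11 under AEZS-136. The treated arrays were tightly grouped below all controls (log2 change -1.02 ± 0.2 SE, 2.03-fold, limma adjusted p = 0.000989). FOSL1 in L-540 went from 6.85, 6.84 and 7.01 to 6.38, 5.82 and 6.30 (-0.73, adjusted p = 0.0182). In SUP-HD1 it went from 6.15, 6.29 and 6.15 to 5.90, 4.81 and 5.33 (-0.85, adjusted p = 0.00846), with the treated arrays spread over more than 1 log2 unit and 1 of them not detected. The groups did not overlap in either line. The L-540 call was lost without control replicate 3 (-0.68, adjusted p = 0.0668) or AEZS-136 replicate 2 (-0.56), and the SUP-HD1 call without AEZS-136 replicate 2 (-0.58, adjusted p = 0.0653). In L-428, 1 of 3 arrays of each group detected FOSL1, and the change of 0.07 had an interval from -0.34 to 0.48. Without background correction the same FOSL1 changes shrank to -0.36, -0.36 and -0.31 in KM-H2, L-540 and SUP-HD1 and were under the fold threshold in each. Within the first and second export sets FOSL1 moved by -0.84 and -1.39 in KM-H2, -0.94 and -0.46 in L-540, and -0.68 and -1.34 in SUP-HD1, each of these downward.

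ETV5, an ETS factor of the PEA3 group that ERK signalling commonly induces, was the only member to rise on its main probe. In KM-H2 its controls read 5.69, 5.42 and 5.38 and the treated arrays 5.99, 6.06 and 5.95. All treated arrays were above all controls (log2 change 0.50 ± 0.13 SE, 1.41-fold, limma adjusted p = 0.0122). The call was lost without control replicate 3 (0.44, adjusted p = 0.0598) or AEZS-136 replicate 2 (0.47, adjusted p = 0.0502), the rise was 0.18 without background correction, and the second ETV5 probe was detected on no KM-H2 array. On the main probe the export sets gave 0.43 and 0.64, neither called. In SUP-HD1, where ETV5 was abundant at 8.84, 8.81 and 8.85 in controls, the treated arrays read 8.75, 8.79 and 8.79, a change of -0.06 (interval -0.33 to 0.22). L-540 detected it on 1 of 3 arrays of each group, and L-428 on none.

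PHLDA1, a pleckstrin homology domain protein induced by growth factor signalling, was detected on every array by its main probe and was called in no line. Its changes were -0.10 in KM-H2, -0.24 in L-428, -0.27 in L-540 and -0.20 in SUP-HD1, with an interval from -0.59 to 0.06 in L-540. All 4 values were below 0, and the average over the lines was -0.20 (adjusted p = 0.0654). The dimmer second PHLDA1 probe disagreed in KM-H2, where it read 4.72, 5.20 and 5.04 in controls and 5.53, 6.06 and 5.21 under AEZS-136 and was called as rising (0.62, adjusted p = 0.0347). The lowest treated array of that probe lay just above the highest control there, but the main probe read 8.39 ± 0.2 and 8.29 ± 0.025 (SD, n = 3) in the same samples.

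**Figure D3:**
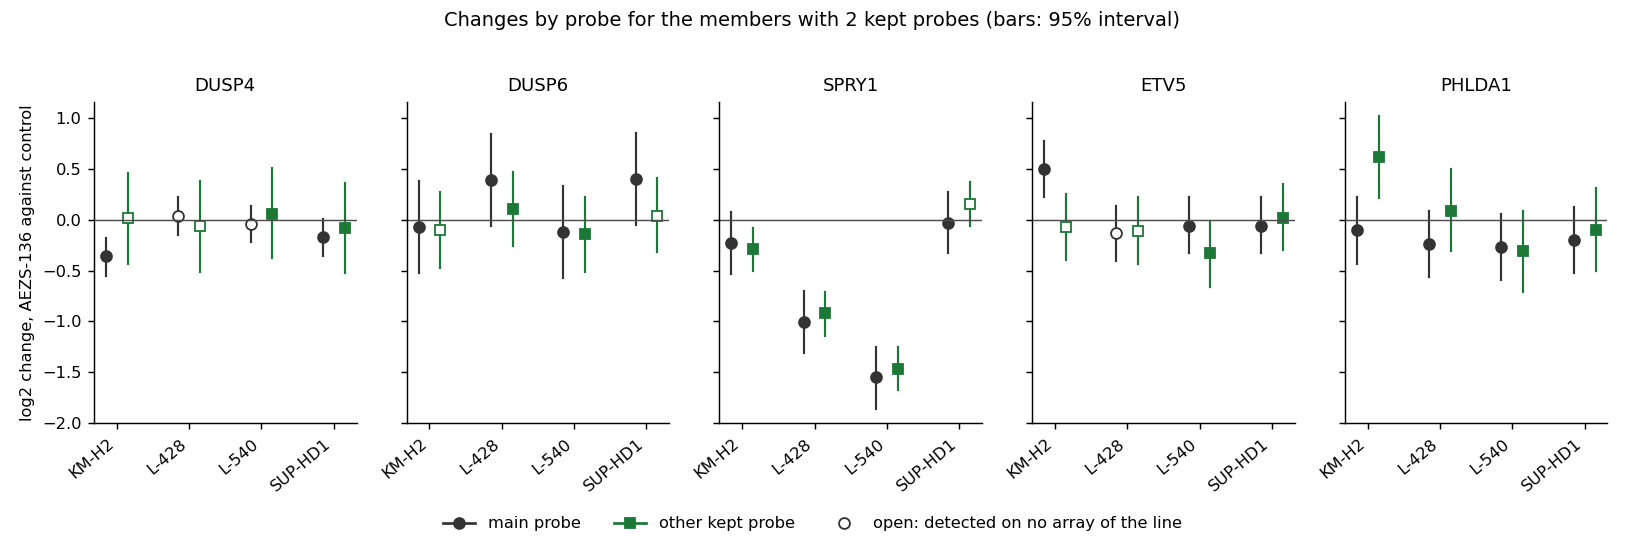
Log2 change and 95% interval in each line for the 5 members with 2 kept probes, main probe as circles and the other kept probe as squares, open where no array of the line detected the probe. The SPRY1 probes move together (-1.55 and -1.47 in L-540), while those of PHLDA1 (-0.10 and 0.62) and ETV5 (0.50 and -0.07) part in KM-H2.

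The class comparison asks whether the ERK genes responded differently in the lines where the study saw ERK phosphorylation go up and those where it saw it go down. The difference of responses, resistant minus sensitive, was called for 1 of the 10 members, against 2.62% of all genes in either direction. That member was DUSP5, with -0.56 ± 0.091 SE (95% interval -0.74 to -0.37, limma adjusted p = 0.00139), so it went down more in the resistant class. The direction came from KM-H2, since L-428 (-0.26) lay between L-540 (0) and SUP-HD1 (-0.37). The value was -0.57 and -0.59 within the export sets and -0.58 with median scaling, and the call was lost in all 3 (adjusted p = 0.195, 0.382 and 0.228). For the other 9 members the differences ran from -0.13 for SPRED2 to 0.31 for FOSL1. None of these passed the test, and their intervals reached as far as -0.43 to 0.47 for DUSP6 and -0.10 to 0.72 for FOSL1. On main probes SPRY2 was undetected in KM-H2 and both sensitive lines, DUSP4 in L-428 and L-540, ETV5 in L-428 and SPRED1 in L-540. Near background were SPRY1 in SUP-HD1, FOSL1 in L-428, ETV5 in L-540, DUSP4 in KM-H2, and DUSP6 in KM-H2 and SUP-HD1. For these genes the class difference includes lines where a fall could not have been measured. The test covers the spread of arrays, not of lines, of which each class had 2.

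**Figure D4:**
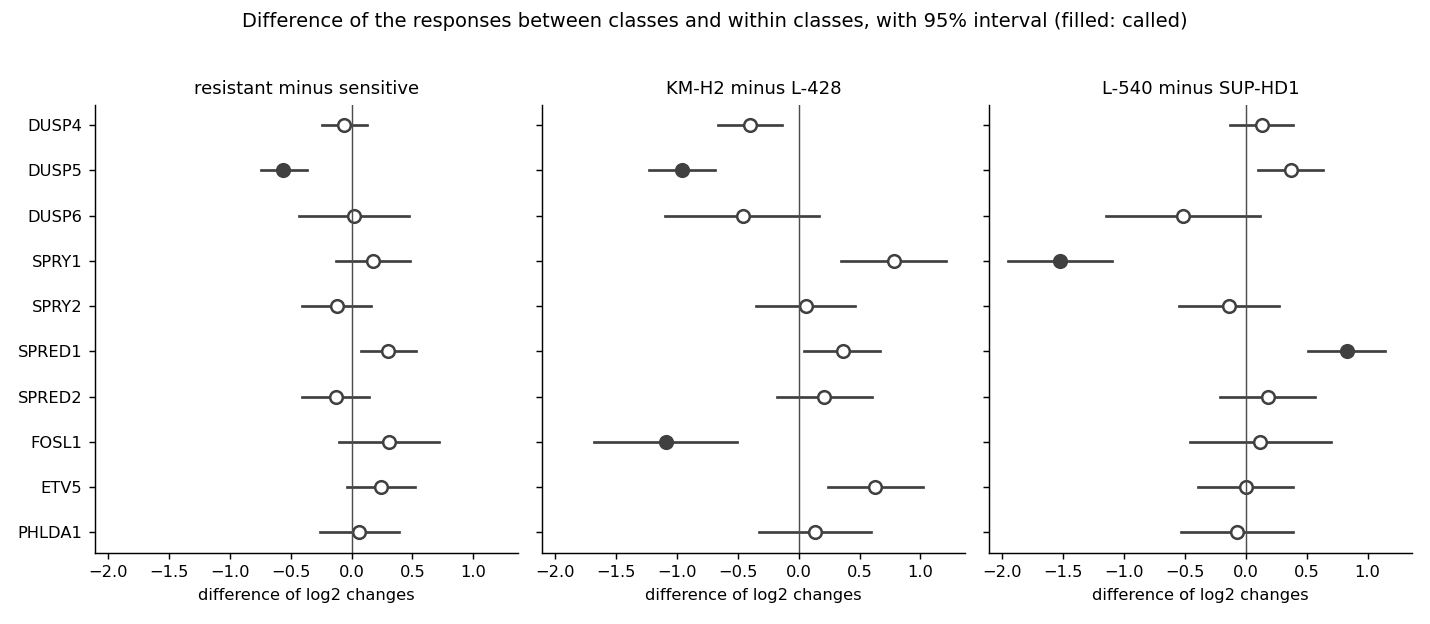
Difference of log2 changes between the classes (resistant minus sensitive) and between the 2 lines of each class, with 95% intervals, main probe, filled where called. DUSP5 is the only filled point between the classes (-0.56), while DUSP5 (-0.96), FOSL1 (-1.09), SPRY1 (-1.53) and SPRED1 (0.83) are filled within a class.

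Lines of the same class differed as well. Between the resistant lines (KM-H2 minus L-428), 2 members were called, against 2.33% of all genes. These were DUSP5 (-0.96 ± 0.13 SE, adjusted p = 0.00019) and FOSL1 (-1.09 ± 0.28, adjusted p = 0.0458), both going down more in KM-H2. FOSL1 was near background in L-428, so a fall there could not have been measured. The FOSL1 call was fragile. It held only when the array left out was KM-H2 control replicate 1, L-540 control replicate 3, L-540 AEZS-136 replicate 1 or 2, or SUP-HD1 AEZS-136 replicate 1 or 2, and its adjusted p ran from 0.0123 to 0.121 over the 24 fits that each left out 1 array, with values from -1.22 to -0.92. SPRY1 went the other way (0.78, interval 0.35 to 1.21, adjusted p = 0.0548), was called with 5 of the 24 arrays left out in turn (0.78 to 0.89, without L-428 control or AEZS-136 replicate 1, L-540 control replicate 3, or SUP-HD1 control replicate 1 or 3), and was called on its second probe (0.63, adjusted p = 0.0211). ETV5 (0.63, adjusted p = 0.0901) was called without L-428 control replicate 1 (0.75) or L-540 control replicate 3 (0.63). No L-428 array detected ETV5, so here too a measured change is set against a level at background.

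Between the sensitive lines (L-540 minus SUP-HD1), 2 members were called, against 4.45% of all genes. SPRY1 differed by -1.53 ± 0.21 SE (limma adjusted p = 0.000157) and SPRED1 by 0.83 ± 0.15 (adjusted p = 0.0029). Each of these had no detectable transcript in 1 of the lines on nearly all arrays, SPRY1 in SUP-HD1 and SPRED1 in L-540, so the differences set a measured fall against a level at background. Within the export sets the 4 differences inside classes kept their direction, with DUSP5 at -0.84 and -1.08, FOSL1 at -0.98 and -1.42, SPRY1 at -1.31 and -1.73 and SPRED1 at 0.83 and 0.85, and none was called. Over all 4 lines, limma's F test found unequal responses for 3 members, DUSP5 (adjusted p = 1.8e-05), SPRY1 (0.000153) and SPRED1 (0.00186), against 9.2% of all genes. Averaged over the lines, 3 members fell and 0 rose, against 3.06% and 4.24% of all genes. These were DUSP5 (-0.46 ± 0.045 SE), SPRY1 (-0.70 ± 0.073) and FOSL1 (-0.63 ± 0.099). SPRED1 at -0.37 stayed under the fold threshold except without KM-H2 control replicate 3 or L-428 control replicate 1 (-0.40 in each). These averages are not falls shared by every line. DUSP5 changed by -1.22 in KM-H2 and by 0 in L-540, and SPRY1 in SUP-HD1 and FOSL1 in L-428 were near background.

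Before treatment the 10 genes already differed widely between the lines. Over the 6 pairs of lines, 47 of the 60 comparisons of untreated levels were called. For KM-H2 against L-428 this was 9 members, against 52% of all genes, for KM-H2 against L-540 it was 8 against 54.9%, and for KM-H2 against SUP-HD1 it was 6 against 55.6%. L-428 differed from L-540 in 7 members (50.3% of all genes) and from SUP-HD1 in 9 (48.7%), and L-540 differed from SUP-HD1 in 8 (52.5%). Folds against a line whose control arrays all missed the probe are lower bounds, set by the higher of the lowest detected signal and the probe's own signal on each array.

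The order of the untreated levels varied from gene to gene. DUSP6 was highest in L-428 (11.37 ± 0.13, SD, n = 3), 18.6-fold above L-540 (7.15 ± 0.1). It was lowest in KM-H2 and SUP-HD1, near background with 1 of 3 control arrays detected in each. Those lines could not be ordered (difference of KM-H2 minus SUP-HD1 -0.01, interval -0.46 to 0.44). DUSP5 ran in the order L-540, KM-H2 (9.34 ± 0.02), SUP-HD1 (7.06 ± 0.054) and L-428 (6.49 ± 0.022), with every neighbouring pair called. DUSP4 was highest in SUP-HD1, 3.61-fold above KM-H2 where 1 of 3 control arrays detected it, and at least 3.24-fold above L-428.

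The inhibitors split the lines another way. SPRY1 ran from L-540 (9.48 ± 0.2) over L-428 (8.31 ± 0.17) and KM-H2 (6.64 ± 0.044) to SUP-HD1 (4.71 ± 0.33), with each step called. Its called falls under AEZS-136 were in the 2 lines where it started highest. SUP-HD1 was too near background to show a fall, and a link of the fall to the starting level was not tested. SPRY2 in L-428 was at least 9.98-fold above KM-H2, 8.87-fold above L-540 and 9.77-fold above SUP-HD1, and the other lines could not be ordered. SPRED1 was highest in L-428 (9.33 ± 0.2), then SUP-HD1 (7.90 ± 0.1) and KM-H2 (7.47 ± 0.21), and at least 18.1-fold higher in L-428 than in L-540. SPRED2 spanned only 0.36 log2 units between L-540 and L-428, and no pair of lines was called for it.

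Among the remaining members, ETV5 was 10.1-fold higher in SUP-HD1 (8.83 ± 0.019) than in KM-H2 (5.5 ± 0.17), the next line. FOSL1 was highest in L-540 (6.90 ± 0.093), with SUP-HD1 and KM-H2 not distinguishable below it (difference of KM-H2 minus SUP-HD1 -0.08, interval -0.50 to 0.33) and L-428 lowest. PHLDA1 was highest in L-428 (9.28 ± 0.13) and L-540 (9.16 ± 0.17), which did not differ beyond their spread, lower in KM-H2 (8.39 ± 0.2) and lowest in SUP-HD1 (5.67 ± 0.32). L-428, with the highest DUSP6, SPRY2, SPRED1 and PHLDA1, had the lowest DUSP5, SPRED2, FOSL1 and ETV5 by mean level. Not all of these ranks were resolved. PHLDA1 did not differ from L-540, SPRED2 was called for no pair of lines, and FOSL1 and ETV5 were at or near background in L-428.

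Other genes known as ERK outputs moved in both directions. Of 28 such genes, 18 had a kept probe, and calls are given on main probes. In KM-H2, 1 rose (KLF6) and 3 fell (EGR1, KLF10 and PHLDA2), in L-428, 2 rose (KLF6 and FOSB) and 2 fell (CDC25A and MYC), in L-540, 2 rose (HBEGF and FOSB) and 2 fell (MYC and DUSP2), and in SUP-HD1, 1 rose (KLF6) and 3 fell (MYC, DUSP2 and DUSP1). KLF10, PHLDA2, FOSB and CDC25A are named because the counts are small, after their values were seen. FOSB was near background, detected on 1 of 3 control arrays in L-428, where the groups overlapped (4.86 to 5.47). In L-540 it was detected on 0 of 3 controls, and the rise was at least 1.38-fold. Over all genes 3.21% (SUP-HD1) to 7.12% (KM-H2) rose and 3.61% (L-428) to 5.8% (KM-H2) fell in a line. These shares apply to the counts of this list and of the lists below. The list's median change lay between -0.11 and -0.08 in each line, against -0.02 to 0 for all genes. MCL1, an anti-apoptotic protein, was not called on its main probe but another of its probes was called as falling in L-428 (-0.59, main probe 0.09).

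MYC, the growth-promoting transcription factor, fell from 11.01 ± 0.1 to 9.60 ± 0.15 (SD, n = 3) in SUP-HD1 (log2 change -1.41 ± 0.1 SE, limma adjusted p = 1.28e-08), by 0.57 in L-540 and by 0.49 in L-428. In KM-H2 its change was -0.01 (adjusted p = 0.991). EGR1, an immediate early zinc finger factor, fell in KM-H2, from 6.70 ± 0.45 to 5.51 ± 0.26 (-1.2, adjusted p = 0.00243), with changes of -0.31 in L-428, 0.17 in L-540 and -0.19 in SUP-HD1 that were not called. KLF6, a zinc finger factor also induced by stress, rose by 1.24 in SUP-HD1, 0.87 in KM-H2 and 0.70 in L-428, and its change of 0.27 in L-540 (adjusted p = 0.0165) was under the fold threshold. HBEGF, an EGF receptor ligand, rose in L-540, from 7.33 ± 0.064 to 8.52 ± 0.17 (1.2, adjusted p = 1.55e-05). Between the classes 3 of the 18 genes were called, against 2.62% of all genes in either direction. These were MYC (0.74 ± 0.1 SE, limma adjusted p = 0.000261), DUSP2 (0.85 ± 0.2, adjusted p = 0.028) and IER3 (0.43 ± 0.094, adjusted p = 0.0169). Each had a lower mean response in the sensitive lines, the opposite side from DUSP5. The MYC difference came from KM-H2 and SUP-HD1, since L-428 and L-540 were close. IER3 was called in no single line, with changes of 0.28 in KM-H2, 0.13 in L-428, -0.05 in L-540 and -0.39 in SUP-HD1. The list was written with earlier results of these data known. In the study, DUSP2 at 2 h and IER3 at a later time were already listed as oppositely regulated between the classes. The count of 3 is therefore no independent test of a class difference.

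Of 7 other MAP kinase phosphatases, 2 of them also in the list of outputs, none rose and 2 were called. DUSP2, a nuclear phosphatase of immune cells, fell by 1.0 in SUP-HD1 and by 0.90 in L-540, with changes of -0.49 in L-428 and 0.29 in KM-H2 that were not called. DUSP1, an early phosphatase of p38, JNK and ERK, fell by 0.50 in SUP-HD1 (adjusted p = 0.00219). Of 25 genes of the cascade from RAS to ERK, 19 were measured. GRB2, the adaptor between receptors and RAS activation, rose by 0.60 in KM-H2 (adjusted p = 0.000363, second probe 0.21), and SRF, a partner of ETS factors, fell by 0.44 in SUP-HD1 (adjusted p = 0.0091), a call lost without control replicate 3 (-0.37). On their main probes the other 17 were called in no line. Other kept probes of 3 of these genes were called, HRAS, a RAS protein, as rising in KM-H2 (1.13, adjusted p = 0.000113), L-428 (0.96) and L-540 (0.85) where its main probe gave 0.15, 0.22 and -0.02, ELK4, an ETS partner of SRF, as falling in KM-H2 (-0.56) and L-428 (-0.72), and RPS6KA3, a kinase downstream of ERK, as falling in L-428 (-0.67). MKNK2, a kinase activated by ERK, was called between the classes (-0.41 ± 0.087 SE, adjusted p = 0.0127). It was 1 of the 19 measured cascade genes, where 2.62% of all genes were called.

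Genes of the ETS and AP-1 families, 16 of 16 measured, included calls in both directions. ATF3, a stress-induced AP-1 partner, rose in all 4 lines, from 10.01 ± 0.066 to 11.87 ± 0.042 (SD, n = 3) in L-540 (1.87 ± 0.081 SE, limma adjusted p = 2.47e-12), and by 1.2 in L-428, 1.16 in KM-H2 and 0.76 in SUP-HD1. Its second probe gave 0.53, 0.30, 0.10 and 0.60 in these lines in that order, and was called in L-540 and SUP-HD1. JUN, the main AP-1 subunit, rose by 0.68 in KM-H2, 0.52 in L-428 and 0.44 in L-540, the last being lost without control replicate 3 (0.36) or AEZS-136 replicate 2 (0.39). BATF, an AP-1 factor of lymphocytes, fell by 0.52 in SUP-HD1, 0.46 in L-540 and 0.40 in KM-H2, the last being lost without control replicate 2 (-0.33) or AEZS-136 replicate 3 (-0.37). ETV3, an ETS repressor, fell by 0.69 in SUP-HD1. BATF3 (-0.41) and CIC (-0.44), a repressor of ETV genes that ERK signalling inactivates, fell in KM-H2 and complete the calls on main probes. One other probe of ELF2, an ETS factor, was called as falling in KM-H2 (-0.57), L-428 (-0.71) and L-540 (-0.65), where the main probe gave -0.06, -0.02 and -0.09.

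**Figure D5:**
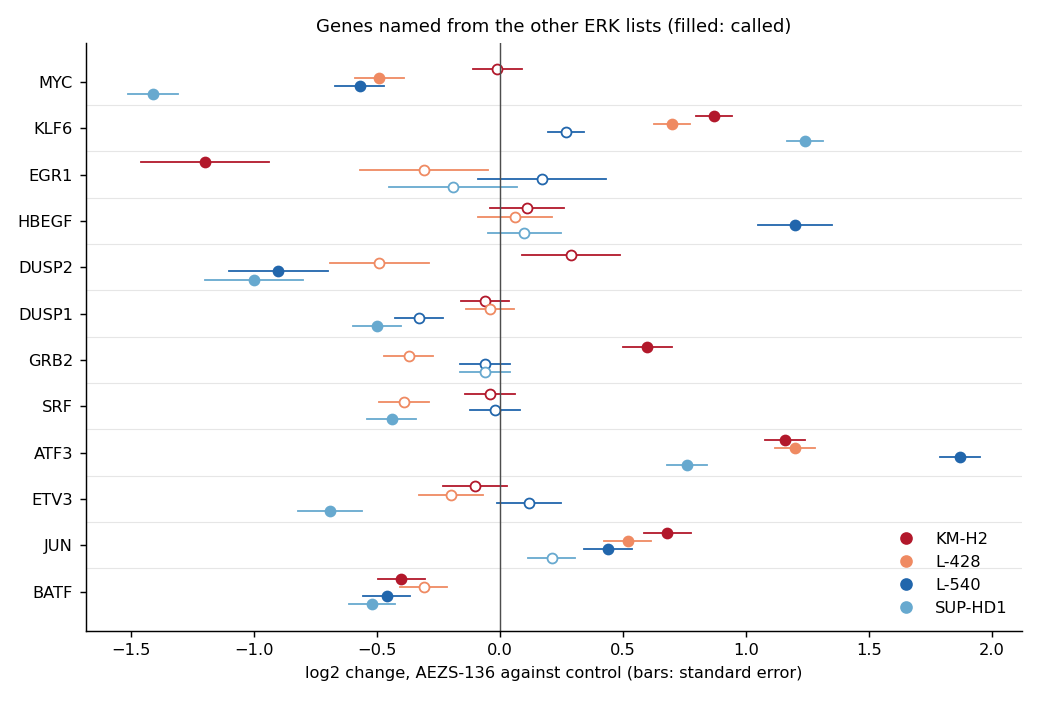
Log2 change with its standard error in the 4 lines for 12 genes named from the lists of other ERK outputs, phosphatases, cascade genes and ETS or AP-1 factors, filled where called. ATF3 is right of 0 in every line (0.76 to 1.87), and MYC runs from -0.01 in KM-H2 to -1.41 in SUP-HD1.

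For the 3 members with the widest class difference, the genes most like them were sought over the 24 arrays, each array taken relative to its line's control mean. These correlations describe shared movement in arrays that include the treated lines themselves. DUSP5 moved most like ID2 (r = 0.95, with a change of -1.21 in KM-H2 and -0.22 to -0.12 elsewhere), PHLDA3 (0.94) and GRWD1 (0.93). FOSL1 moved most like MEX3B (0.91), TNFSF10 (0.88) and HEY1 (0.88), and HEY1 changed by -1.42 in KM-H2 and by -0.31 in L-428. SPRED1 moved most like NETO2 (0.97), MAPK6 (0.93) and EIF4A1 (0.93), whose changes in SUP-HD1 were -0.71, -0.68 and -0.60.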

How the data were processed

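Total RNA of 4 HL cell lines was measured on 24 Illumina bead arrays. The authors summarised probe intensity in BeadStudio (version not given in the sources used here) and deposited it without normalization, on a linear scale, with a detection value per probe that is 1 minus the detection p-value. The authors also deposited log2 values of the same arrays, made with lumi by robust spline normalization, which served as an alternative here. In 3270 consecutive probes the intensity columns were out of register, and these probes, 0 of them of the 10 members, were left out.

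Intensities were corrected and quantile normalized with neqc of limma 3.58.1 in R 4.3.3 (offset 16, background from the detection p-values). Probes detected at p below 0.05 on at least 3 arrays were kept (24578), and 15 of the 16 member probes passed. All 8 groups were fitted together with lmFit and eBayes, p-values were adjusted by Benjamini-Hochberg over all kept probes, and a call needed adjusted p below 0.05 and a log2 change above 0.4 in size. A gene's main probe was its brightest kept probe. Array number and signal above background limit the precision. Symbols came from the platform's annotation, which names 1 gene for 18321 of the kept probes, and promoter windows from RefSeq. The fit was tested on simulated data with known changes.

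The members and gene lists were chosen with earlier results of these data known. All members were named, and from each other list up to 4 genes that were called in a line without overlap, those with the largest changes. Class membership followed the study. Alternatives covered background correction, scaling, the filter, the fit, the export set, single arrays and the methods' t-test.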

Additional observations from a re-analysis of the deposited data

Results flagged for a closer look

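Responses that differed between groups of lines are listed here, each by the test of the difference in the fit over all probes. DUSP5 responded differently between the classes, with a resistant minus sensitive difference of -0.56 on the log2 scale. Inside the resistant class, KM-H2 and L-428 differed in DUSP5 (-0.96) and in FOSL1 (-1.09). Inside the sensitive class, L-540 and SUP-HD1 differed in SPRY1 (-1.53) and in SPRED1 (0.83). FOSL1 in L-428, SPRY1 in SUP-HD1 and SPRED1 in L-540 were at or near background. Those differences set a measured fall against a level where none could be measured. Of these 5, 1 is between the classes and 4 are within them.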

How the results depend on the processing

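The counts of called members depended on the processing. The KM-H2 count of 3 became 1 with quantile normalization without background correction, with the authors' normalized values, with only probes detected on all 24 arrays, in each export set alone and with the methods' t-test. The L-428 count of 3 became 1 under the first 3 of these, with median scaling and in a fit of that line alone, and 0 in each export set and with the t-test. The L-540 and SUP-HD1 counts of 2 became 1 without background correction, with median scaling, the authors' values, each export set, the single-line fit and the t-test, and 0 with only probes detected on all arrays. That filter kept 3 members (DUSP5, SPRED2 and PHLDA1), so the other 7 could not be called under it. The class difference of 1 became 0 with median scaling and in each export set. The KM-H2 minus L-428 count of 2 became 0 under those 3 settings and 1 with the strict filter or with none. The L-540 minus SUP-HD1 count of 2 became 1 with median scaling and 0 with the strict filter and in each set. The count of 3 for the mean of the lines became 1 without background correction, with the authors' values and with the strict filter, and 6 on adjusted p alone. The F test's count of 3 became 5 without background correction, 1 with median scaling or the strict filter, and 0 in each export set. The 47 untreated differences became 11 with the strict filter. The cause was not tested for the other shifts.

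With 1 array left out, the counts ran from 2 to 4 in KM-H2, 1 to 3 in L-428, 1 to 2 in L-540, 2 to 3 in SUP-HD1, 1 to 4 for KM-H2 minus L-428, 3 to 4 for the mean of the lines and for the F test, and 46 to 48 for untreated levels, and stayed at 2 for L-540 minus SUP-HD1 and at 1 between the classes. Replicate numbers did not pair the arrays: same-numbered control and treated arrays correlated at -0.18 to 0.10 in their deviations, 0 of 12 pairs above 0.1, and 6 of 12 were best matched by their own number. With the replicate number as a block, the KM-H2 minus L-428 count was 1 and the other counts of members were as in the main fit. PHLDA1 in KM-H2 changed sign, to 0.62, when any kept probe of the gene could make the call. Over the checks of single-gene results, 1376 stayed on their side of the threshold, 134 lost the call, 15 gained it and 1 was called with its sign reversed. A result that stayed uncalled counts among the 1376 whatever its sign. DUSP6 in KM-H2, for example, ran from -0.18 to 0.11 with 1 array left out. The methods' t-test at their threshold, on adjusted p and the fold, called 753, 241, 420 and 313 probes in KM-H2, then L-428, L-540 and last SUP-HD1, and 1163, 701, 915 and 662 on the unadjusted p, against 2758, 1788, 2227 and 1608 here.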
